A study of Homo sapiens with 6 samples.

Results

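The genes described here were 320 antisense long non-coding RNAs (lncRNAs), measured beside the protein-coding genes after which they are named, in cells treated with polydatin (PD) or with its solvent. Each was chosen by a rule on biotype, name and level. A gene had to be a lncRNA with a symbol ending in -AS and a digit, the name before -AS had to be a protein-coding symbol of the same table, and its mean level had to reach 0.5 FPKM over the 6 libraries, FPKM being fragments scaled to the length of the gene and the total of the library. EPB41L4A-AS1 and OIP5-AS1 were left out by name. Of 1110 antisense-named lncRNAs in a table of 28563 genes, 729 with a protein-coding partner lay under that level and 9 at or above it had no such partner. The lowest gene inside the threshold was SLC38A4-AS1 (0.5002 FPKM) and the highest outside it was SPTBN1-AS2 (0.4965 FPKM). Both groups were used in the mean that selected the genes, and 267 genes reached 0.5 FPKM in both groups, 41 in DMSO alone and 12 in PD alone. The 320 genes had 314 partners, because BCAN, DLGAP1, MNX1, PTOV1, SLCO4A1 and TMEM44 have 2 antisense genes each.

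HepG2 is an established cell line from a human liver cancer, and PD is a glucoside of resveratrol. Dishes of HepG2 cells were divided at random into a group that received PD, 336 µM by the labels (the study's methods give another dose, and which applies is not settled here), and a control group that received DMSO, and RNA was taken after 24 h. There were 3 libraries in each group, so p-values measure the spread between dishes of one line handled in one experiment. The labels name no other agent and no genetic change in either group. RNA was selected by its poly(A) tail, so antisense RNAs without a tail were not selected for. The library kit does not mark the strand of origin. Because these are bulk samples, fewer cells that make an RNA and less of that RNA in each cell cannot be told apart.

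The DMSO libraries held 16763318 to 17274927 fragments, the PD libraries 16308476 to 18071632. Libraries of one group differed by a chi-square per gene of 2.22 to 3.55 and libraries of different groups by 47.18 to 54.97, so no library was a copy of another and none stood apart. The label was checked against liver genes: of 20 hepatocyte markers 9 were in the table, the transcription factor HNF4A lay between 0.0160 and 0.106 FPKM, and only CPS1 and RBP4 reached 1 FPKM in any library (most liver-secreted proteins of the list were under 1 FPKM or not analysed here). These levels go against the liver identity that the label gives, and the cells are called HepG2 here by their label. Their sum was 222 to 229 FPKM in DMSO and 107 to 113 FPKM in PD, nearly all of it CPS1. Among markers of other cell types, ENG of 5 endothelial, COL1A1 and PDGFRB of 6 fibroblast, none of 5 leukocyte, and KRT7, KRT8, KRT18 and EPCAM of 6 epithelial genes reached 1 FPKM, with sums of 20.8 to 23.8, 4.40 to 5.29, 0.469 to 0.645 and 154 to 161 FPKM in DMSO and of 23.3 to 24.4, 4.75 to 5.05, 0.530 to 0.721 and 141 to 148 FPKM in PD. Their part in the results was not tested.

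Antisense lncRNAs are transcribed from the strand opposite to a protein-coding gene. Many start close to the partner's own start and run away from it, since active promoters often fire in both directions, while others begin within the partner or beyond its end and run across it. Some are known to act on the partner, by drawing in or keeping out chromatin factors, by hindering the polymerase on the other strand, or by pairing with the partner's RNA, but for most no function is established. They are usually spliced, kept largely in the nucleus, and found at lower levels than mRNAs, in part because the nuclear exosome degrades them.

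By the GENCODE release 44 annotation on hg38, 96 of the 320 pairs were head to head. In these the genes lie on opposite strands with 5′ ends within 1000 bases, either apart or overlapping. Where the 5′ ends overlap, each gene runs across the start of the other. A further 59 antisense genes overlapped the partner's start, 76 lay inside the partner, 58 overlapped its end and 25 spanned it, while 5 lay apart from it. FAM131B-AS2 is annotated on the same strand as FAM131B. Exon bases were shared with the partner by 219 antisense genes, and with any gene of the table by 237. Fragments from such bases cannot be assigned to a strand with this kit, and the length behind the FPKM values matched release 44 for 123 of the 320 genes only, so that the shared bases the authors counted may differ.

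Head-to-head pairs put both start sites into one stretch of DNA, and the start regions of 4 antisense genes described below are printed to show this, with the partner's region for the NNT and DEPDC1 pairs. Each is the RefSeq promoter window on GRCh38.p14, 250 bases before to 50 bases after the start, 5′ to 3′ on the strand of the gene. Capitals mark the letters of the CCAAT box (CCAAT), the core of the GC box (GGGCGG), the usual form of the TATA box (TATAAA) and a common ETS factor site (CCGGAAG), each searched on both strands.
FBXL19-AS1, chr16:30923220-30923519, minus strand: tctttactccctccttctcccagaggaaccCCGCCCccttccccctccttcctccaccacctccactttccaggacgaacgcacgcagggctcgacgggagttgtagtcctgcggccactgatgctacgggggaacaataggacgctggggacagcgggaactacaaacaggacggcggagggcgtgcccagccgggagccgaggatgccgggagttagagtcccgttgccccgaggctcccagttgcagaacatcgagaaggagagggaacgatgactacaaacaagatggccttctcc
LIPT2-AS1, chr11:74493130-74493429, plus strand: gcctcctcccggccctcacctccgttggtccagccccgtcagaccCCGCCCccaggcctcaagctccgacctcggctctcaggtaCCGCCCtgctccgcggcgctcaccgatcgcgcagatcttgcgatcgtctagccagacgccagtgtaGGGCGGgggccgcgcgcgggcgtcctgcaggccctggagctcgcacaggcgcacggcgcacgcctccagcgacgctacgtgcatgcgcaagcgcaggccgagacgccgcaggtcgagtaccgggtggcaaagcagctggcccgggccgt
DEPDC1-AS1, chr1:68496426-68496725, plus strand: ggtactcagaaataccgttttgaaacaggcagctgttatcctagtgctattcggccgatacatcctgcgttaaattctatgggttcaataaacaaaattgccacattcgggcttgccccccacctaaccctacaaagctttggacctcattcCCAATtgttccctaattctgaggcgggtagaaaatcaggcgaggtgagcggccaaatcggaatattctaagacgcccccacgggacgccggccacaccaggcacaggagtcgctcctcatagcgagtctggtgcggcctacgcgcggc
DEPDC1, chr1:68497033-68497332, minus strand: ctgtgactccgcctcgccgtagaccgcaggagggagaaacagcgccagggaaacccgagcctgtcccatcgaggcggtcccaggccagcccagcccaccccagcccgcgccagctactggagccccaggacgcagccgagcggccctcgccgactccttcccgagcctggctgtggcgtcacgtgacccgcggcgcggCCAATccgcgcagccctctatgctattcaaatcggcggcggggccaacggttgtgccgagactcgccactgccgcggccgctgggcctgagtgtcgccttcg
NNT-AS1, chr5:43603181-43603480, minus strand: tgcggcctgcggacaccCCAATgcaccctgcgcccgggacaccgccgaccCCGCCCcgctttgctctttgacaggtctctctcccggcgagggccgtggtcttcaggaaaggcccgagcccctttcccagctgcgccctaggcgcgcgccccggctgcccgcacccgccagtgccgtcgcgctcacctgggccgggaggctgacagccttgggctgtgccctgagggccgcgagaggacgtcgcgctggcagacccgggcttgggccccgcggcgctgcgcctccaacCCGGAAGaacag
NNT, chr5:43602930-43603229, plus strand: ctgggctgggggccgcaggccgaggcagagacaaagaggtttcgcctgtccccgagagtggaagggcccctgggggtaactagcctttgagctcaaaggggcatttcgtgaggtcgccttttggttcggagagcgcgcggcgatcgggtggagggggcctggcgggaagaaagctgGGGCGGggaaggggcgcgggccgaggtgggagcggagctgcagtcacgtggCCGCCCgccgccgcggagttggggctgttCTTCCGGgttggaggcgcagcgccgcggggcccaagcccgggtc
RefSeq has 2 starts for NNT. The one printed lay 50 bases from the NNT-AS1 start and the windows shared 49 bases, while the other lay 555 bases away with no shared bases. The 49 shared bases hold the CCGGAAG of NNT-AS1 and its reverse complement as read on NNT. The DEPDC1-AS1 and DEPDC1 starts lay 406 bases apart, with no shared bases in these windows and 1 CCAAT match in each. By RefSeq the antisense start lies downstream of the printed NNT start, and likewise for DEPDC1, so the genes of each pair overlap there. LIPT2-AS1 had 3 GC motifs and 73% G and C. RefSeq held a window for 239 of the 320 antisense genes. A GC motif was present in 59.8% of them, in 71.4% of the 77 head-to-head genes with a window, in 38.6% of the 44 inside genes, in 65.6% of the partners with a window and in 44.6% of all 27305 windows. The CCAAT motif was in 30.5% of the antisense windows against 35.7% of all, the TATA motif in 5.02% against 12%, and the ETS motif in 15.5% against 10.7%. Median G and C content was 64.7% in the antisense windows and 58.3% in all windows. Among antisense genes the GC motif was found in 69% of the windows of genes that rose, in 54.7% of those that fell and in 59.4% of those that did not pass the test.

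A different kind of shared sequence is shown by PRR11-AS1, whose single annotated transcript has 321 exon bases, all of which lie in annotated exons of PRR11 on the other strand. The 30 bases below are positions 146 to 175 of that transcript and the same bases as they read on a PRR11 transcript, and they are printed because a fragment of this sequence could come from either gene.
PRR11-AS1: gtctcgctatgtttcccaggctgtattact
PRR11: agtaatacagcctgggaaacatagcgagac
Of the 292 stretches of 30 bases along PRR11-AS1, 274 occur in reverse complement in a PRR11 transcript, and 24 occur in annotated transcripts of other genes.

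More antisense genes passed the test as lower than as higher after 24 h of PD. At an adjusted p of at most 0.05, 50 of the 320 rose (15.6%) and 89 fell (27.8%), while 181 did not pass. The background over all 14400 genes tested was 31.9% higher and 26.2% lower, so the share that fell was close to the background and the share that rose was under it. A gene that reached 0.5 FPKM through 1 group alone had to differ between groups. Of the 267 genes with both group means at 0.5 FPKM or above, a restriction added after the values were seen, 46 rose (17.2%) and 70 fell (26.2%), against 32.6% and 26.1% of the 13527 genes of the table that met it. The median log2 fold change was -0.14 for the antisense genes and 0.01 for all genes tested. Groups of 3 libraries did not overlap in 168 antisense genes (52.5%) against 65.4% of all genes. With a change of at least 2-fold on the log2(FPKM + 1) scale, 3 rose (IGFL2-AS1, EP300-AS1 and SLC9A3-AS1) and 6 fell (MYO16-AS1, BASP1-AS1, SLCO4A1-AS2, FBXL19-AS1, CYP1B1-AS1 and PRR11-AS1), or 0.938% and 1.88%, with a background of 2.04% and 1.57%. Of these SLCO4A1-AS2 and CYP1B1-AS1 reached 0.5 FPKM in DMSO alone, and among the 267 genes 3 rose and 4 fell 2-fold (1.12% and 1.5%, background 1.98% and 1.33%). This scale understates changes at low FPKM: with a pseudocount of 0.1 the counts were 17 and 34, and by limma voom on whole fragments 17 and 38. Over all genes these gave 698 rises and 550 falls of 14400, and 1012 and 723 of 15068, and voom tested 286 antisense genes. On both, 2-fold falls outnumbered rises among antisense genes, and rises outnumbered falls over all genes. These counts were not restricted to the 267 genes and can include those that reached 0.5 FPKM in 1 group alone (41 in DMSO, 12 in PD). A difference was built into the choice of such genes, so no contrast with all genes is drawn from these 2 scales. The share of 2-fold falls near the background is given for the main scale only. Without DMSO replicate 1 the 2-fold rises numbered 5.

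These genes were mostly of low level, which limits the precision of each value. Their median mean level was 1.25 FPKM against 5.52 FPKM for all genes tested, and together they held 0.192 to 0.214% of the fragments of a library. In 243 of them every library had at least 10 fragments, and in 60 at least 100. Of the 126 genes between 0.5 and 1 FPKM, 6 rose (4.76%) and 27 fell (21.4%). Between 1 and 2 FPKM 21 of 88 rose (23.9%) and 20 fell (22.7%). Between 2 and 5 FPKM 12 of 75 rose (16%) and 30 fell (40%). At 5 FPKM or above 11 of 31 rose (35.5%) and 12 fell (38.7%). Over all genes tested 31.9% rose and 26.2% fell, so in the lowest band both shares were under the background. The shares of all genes at the same levels are not given here. The counts by level were not restricted to genes that reached 0.5 FPKM in both groups, so some differences in them were built in by the choice.

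Other lncRNA classes were read from the same fit. Divergent transcripts, with symbols ending in -DT, rose in 40 (22.9%) and fell in 40 (22.9%) of 175. The remaining lncRNAs rose in 83 (7.67%) and fell in 330 (30.5%) of 1082, with a median mean level of 1.21 FPKM. Protein-coding genes rose in 4282 (38.2%) and fell in 2911 (26%) of 11208. Over all genes tested 31.9% rose and 26.2% fell, and over the 320 antisense genes 15.6% and 27.8%. A share of rises under the background was thus also found in divergent transcripts and the remaining lncRNAs. Of the 11 antisense-named lncRNAs that the rule leaves out, 1 rose and 8 fell.

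The levels of the antisense genes were set beside those of their partners. The median antisense gene stood at 23.6% of its partner's FPKM, and 82 of 320 stood above it. Head-to-head genes stood at a median of 13.2% of the partner, and genes spanning it at 102%. Across 285 pairs in which both genes were tested, the mean levels had a Spearman rho of 0.129, given as a description over pairs that share the same 6 libraries. For 35 antisense genes the partner was itself under 0.5 FPKM and was not tested.

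**Figure D1:**
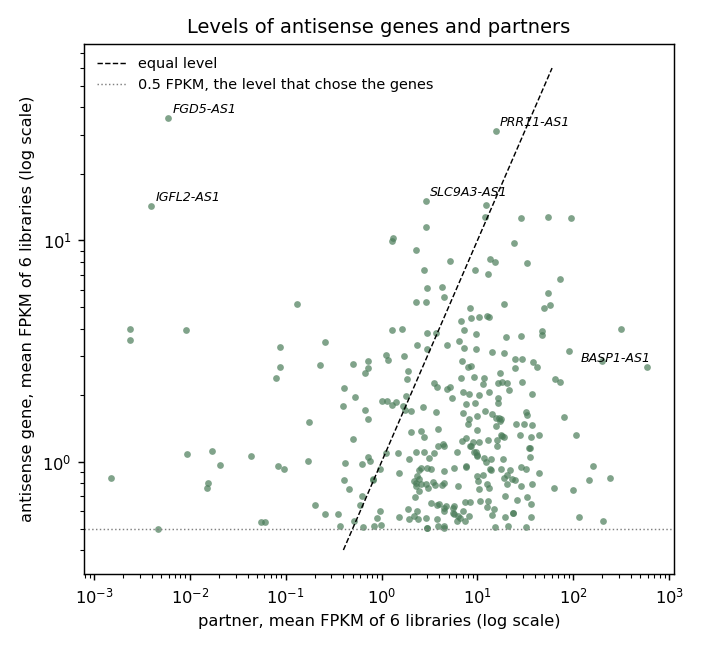
Mean FPKM over 6 libraries of each of the 320 antisense genes (vertical axis, log scale) against that of its partner (horizontal axis, log scale); 1 point is 1 pair, the dashed line marks equal level and the dotted line the 0.5 FPKM that chose the genes. Most points lie right of the dashed line, and FGD5-AS1 and IGFL2-AS1 stand far to its left with partners near 0.

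FGD5-AS1 had the highest level of all. It measured 33.1, 35.1 and 32.6 FPKM in DMSO and 35.8, 38.7 and 38.6 FPKM in PD. The PD libraries all lay above the DMSO libraries, by a small step (log2 fold change 0.16 ± 0.05 SE, adjusted p = 0.0175). FGD5, which encodes an exchange factor for the small GTPase Cdc42 and is best known in endothelial cells, had at most 0.0216 FPKM, or 3 fragments, in any library.

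PRR11-AS1 came next. It measured 44, 42.2 and 40.4 FPKM in DMSO and 20.2, 18.3 and 22.5 FPKM in PD, and every PD library lay under every DMSO library (log2 fold change -1.02 ± 0.07 SE, adjusted p = 2.79e-05). PRR11, a proline-rich protein of the cell cycle, measured 20.05, 20.1 and 18.4 FPKM in DMSO and 11.7, 11.8 and 11.5 FPKM in PD and fell as well (log2 fold change -0.69 ± 0.05 SE, adjusted p = 2.03e-05). All 321 of its annotated exon bases lie in PRR11 exons and the kit does not mark strand, so fragments counted for the antisense gene cannot be told apart from those of PRR11.

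At the next levels ARRDC1-AS1 fell and its partner rose. ARRDC1-AS1 measured 17.8, 16.6 and 16.6 FPKM in DMSO and 11.8, 11.97 and 12.2 FPKM in PD (log2 fold change -0.47 ± 0.04 SE, adjusted p = 7.62e-05). ARRDC1, an arrestin-domain protein that drives budding of vesicles at the plasma membrane, measured 9.71, 10.8 and 10.7 FPKM in DMSO and 14.5, 14.5 and 12.98 FPKM in PD (log2 fold change 0.39 ± 0.06 SE, adjusted p = 0.00106). The genes share 35 exon bases at their ends.

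Other abundant antisense genes differed little between groups. GATA2-AS1, which overlaps the start of the haematopoietic transcription factor gene GATA2, measured 12.8, 14.6 and 12.9 FPKM in DMSO and 11.7, 10.7 and 13.6 FPKM in PD (log2 fold change -0.15 ± 0.09 SE, adjusted p = 0.183), and its groups overlapped. Without PD replicate 3 its log2 fold change was -0.23, with an adjusted p of 0.0381. NNT-AS1, head to head with the gene of the mitochondrial transhydrogenase NNT, measured 13.8, 12.8 and 11.4 FPKM in DMSO and 14.1, 11.8 and 12.4 FPKM in PD (log2 fold change 0.01 ± 0.08 SE, adjusted p = 0.918). NNT itself measured 54.04, 58.03 and 55.04 FPKM in DMSO and 54.8, 51.7 and 53.2 FPKM in PD (log2 fold change -0.06 ± 0.04 SE, adjusted p = 0.191), so neither gene of this closely spaced pair passed the test, but under upper quartile scaling NNT passed as lower (log2 fold change -0.11, adjusted p = 0.0414). MRPL20-AS1, which overlaps the end of the mitochondrial ribosome gene MRPL20, measured 14.3, 12.6 and 12.7 FPKM in DMSO and 11.9, 11.8 and 12.3 FPKM in PD (log2 fold change -0.13 ± 0.06 SE, adjusted p = 0.0864). Here MRPL20 fell (log2 fold change -0.30 ± 0.05 SE, adjusted p = 0.00266), and under either of the other scalings MRPL20-AS1 passed too, with adjusted p of 0.0382 and 0.0293.

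The largest rise belonged to IGFL2-AS1 (ENSG00000268621, chr19:46189029-46203160). It measured 7.901, 7.12 and 8.38 FPKM in DMSO and 19.6, 21.3 and 21.4 FPKM in PD, with no overlap between groups (log2 fold change 1.31 ± 0.06 SE, adjusted p = 6.44e-06). IGFL2, a gene of the small IGF-like family, lies 60054 bases away by start site and gave 1 fragment in 1 DMSO library and none in the other 5 libraries. The annotated genes do not overlap.

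EP300-AS1 (chr22:41174591-41197508) rose by over 2-fold while its partner fell. The antisense gene, which overlaps the end of EP300 without sharing exon bases, measured 2.79, 2.09 and 1.79 FPKM in DMSO and 5.69, 5.74 and 5.501 FPKM in PD (log2 fold change 1.06 ± 0.11 SE, adjusted p = 0.000149). It rested on 14 to 47 fragments a library. EP300, a histone acetyltransferase and co-activator, measured 8.28, 8.49 and 8.15 FPKM in DMSO and 6.76, 5.97 and 6.17 FPKM in PD (log2 fold change -0.35 ± 0.05 SE, adjusted p = 0.00105).

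SLC9A3-AS1 lies inside SLC9A3, the gene of the sodium/proton exchanger NHE3. It measured 9.57, 9.05 and 10.3 FPKM in DMSO and 20.4, 20.5 and 20.8 FPKM in PD (log2 fold change 1.02 ± 0.05 SE, adjusted p = 6.64e-06), from 653 to 1589 fragments a library. SLC9A3 measured 2.995, 2.12 and 2.12 FPKM in DMSO and 3.48, 3.24 and 3.48 FPKM in PD and rose less (log2 fold change 0.38 ± 0.10 SE, adjusted p = 0.0172), with 830 exon bases shared. The rise of SLC9A3 missed the threshold with no filter on FPKM (adjusted p = 0.055) and without DMSO replicate 2 or 3 or PD replicate 1 or 3 (0.0508 to 0.0554). The log2 ratio of antisense to partner was higher in all 3 PD libraries, by 0.64 (exact two-sided permutation test, p = 0.10, the smallest that 3 against 3 libraries allow). SLC9A3-AS1 was named for its rise, which enters this ratio, so the p is a description.

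LIPT2-AS1 rose at the G and C rich start shown above. It measured 1.695, 1.58 and 1.52 FPKM in DMSO and 4.71, 3.71 and 4.08 FPKM in PD (log2 fold change 0.99 ± 0.08 SE, adjusted p = 5.94e-05). LIPT2, which transfers the octanoyl group that becomes lipoic acid in mitochondria, measured 1.12, 0.955 and 0.788 FPKM in DMSO and 0.932, 1.68 and 1.601 FPKM in PD, and its groups overlapped (log2 fold change 0.29 ± 0.14 SE, adjusted p = 0.125). Without PD replicate 1 LIPT2 passed as higher, with an adjusted p of 0.0153.

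MAP3K14-AS1 measured 0.353, 0.205 and 0.526 FPKM in DMSO and 1.47, 1.77 and 1.27 FPKM in PD (log2 fold change 0.88 ± 0.13 SE). It reached 0.5 FPKM in PD alone, so a difference was built into its choice and no p is given for it. Its partner MAP3K14, the NIK kinase of the non-canonical NF-kB pathway, was far more abundant at 13.7, 13.5 and 15.1 FPKM in DMSO and 12.8, 13.7 and 13.1 FPKM in PD and did not pass (log2 fold change -0.09 ± 0.05 SE, adjusted p = 0.187). The 2 genes share 858 exon bases at the end of MAP3K14.

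**Figure D2:**
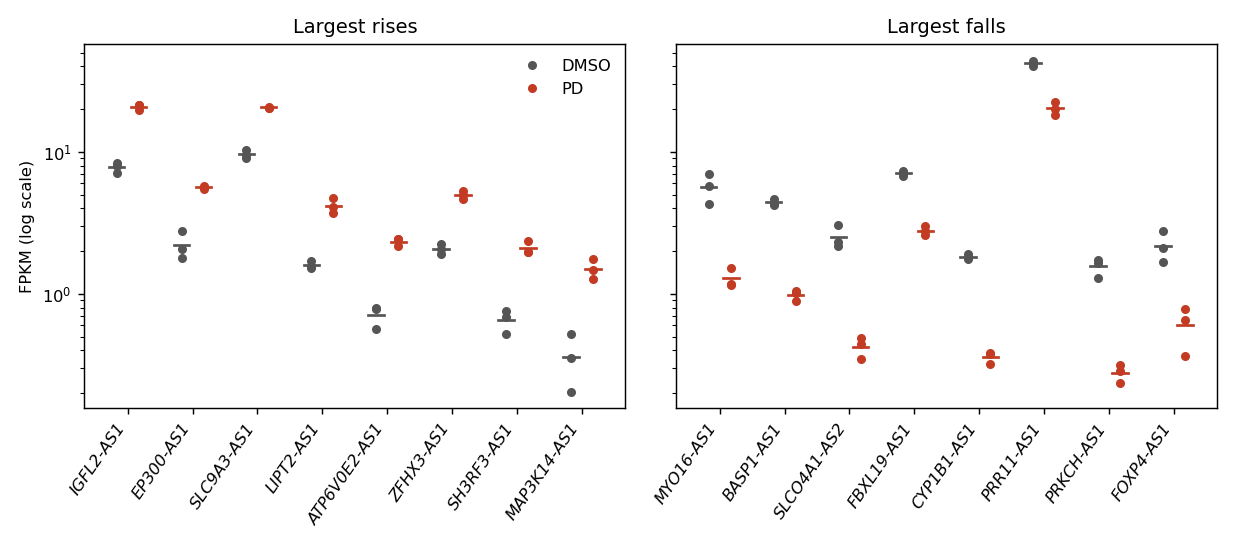
FPKM (log scale) in each of the 3 DMSO and 3 PD libraries for the 8 antisense genes with the largest rises (left) and the 8 with the largest falls (right) past the test; points are libraries and short lines are group means. The groups of these 16 genes do not overlap, which the rule for naming them required.

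MYO16-AS1 (chr13:109163902-109201483) showed the largest fall. It measured 5.79, 4.32 and 6.95 FPKM in DMSO and 1.53, 1.18 and 1.16 FPKM in PD (log2 fold change -1.53 ± 0.15 SE, adjusted p = 0.000106), with 11 to 69 fragments a library. MYO16, an unconventional myosin, was under the level tested and measured 0.3897, 0.3304 and 0.4697 FPKM in DMSO and 0.0961, 0.118 and 0.133 FPKM in PD. Both genes were thus lower in every PD library, and they share no exon bases although MYO16-AS1 lies inside MYO16.

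BASP1-AS1 and BASP1 fell together. The antisense gene, inside the annotated span of BASP1 with 75 of its 12042 exon bases shared, measured 4.33, 4.26 and 4.63 FPKM in DMSO and 1.02, 0.892 and 1.04 FPKM in PD (log2 fold change -1.45 ± 0.07 SE, adjusted p = 5.64e-06). BASP1, a membrane-bound signal protein with a second role as a transcriptional corepressor, was among the most abundant partners at 745, 756 and 773 FPKM in DMSO and 407, 410.5 and 424 FPKM in PD (log2 fold change -0.87 ± 0.03 SE, adjusted p = 2.37e-06). The log2 ratio of antisense to partner was lower in PD by -0.57, with no overlap (exact permutation test, p = 0.10). BASP1-AS1 was named for its fall, which enters this ratio, so the p is a description. The kit does not mark strand and BASP1 was far more abundant, so fragments of the 75 shared bases could form part of the antisense level. How such fragments were counted is not known, and their part was not tested.

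SLCO4A1 has 2 antisense genes inside it, both lower in every PD library. SLCO4A1-AS2 measured 2.34, 3.04 and 2.17 FPKM in DMSO and 0.49, 0.347 and 0.441 FPKM in PD (log2 fold change -1.29 ± 0.11 SE), and no p is given, since it reached 0.5 FPKM in DMSO alone. SLCO4A1-AS1, named here as the other gene of this partner, measured 1.02, 0.972 and 1.22 FPKM in DMSO and 0.253, 0.669 and 0.6396 FPKM in PD (log2 fold change -0.46 ± 0.13 SE, adjusted p = 0.0223). SLCO4A1, an organic anion transporter, measured 37.4, 38.99 and 41.1 FPKM in DMSO and 33.6, 34.9 and 38.01 FPKM in PD and did not pass (log2 fold change -0.14 ± 0.06 SE, adjusted p = 0.0637). It did pass as lower with the replicate block (adjusted p = 0.017), by voom (0.019), under both other scalings (0.0447 and 0.0251) and without PD replicate 3 (0.0225), so no contrast with its antisense genes can be drawn from that test.

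FBXL19-AS1, whose start region with 1 GC motif is printed above, measured 6.77, 7.38 and 7.03 FPKM in DMSO and 2.77, 2.61 and 2.995 FPKM in PD (log2 fold change -1.09 ± 0.06 SE, adjusted p = 1e-05). FBXL19, a protein that binds unmethylated CpG islands, measured 8.56, 8.77 and 9.58 FPKM in DMSO and 7.52, 7.32 and 7.98 FPKM in PD and fell by less (log2 fold change -0.21 ± 0.06 SE, adjusted p = 0.014), with an adjusted p of 0.0509 without PD replicate 2. The log2 ratio of antisense to partner was lower in PD by -0.88, with no overlap (exact permutation test, p = 0.10). FBXL19-AS1 was named for its fall, which enters this ratio, so the p is a description.

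CYP1B1-AS1 overlaps the start of CYP1B1, a cytochrome P450 that is a classical target of the aryl hydrocarbon receptor. CYP1B1-AS1 measured 1.897, 1.76 and 1.81 FPKM in DMSO and 0.386, 0.375 and 0.321 FPKM in PD (log2 fold change -1.05 ± 0.08 SE), again with 0.5 FPKM reached in DMSO alone and no p given. CYP1B1 measured 5.66, 5.46 and 5.39 FPKM in DMSO and 1.49, 1.43 and 1.63 FPKM in PD (log2 fold change -1.37 ± 0.06 SE, adjusted p = 4.22e-06). Of the exon bases of CYP1B1-AS1, 678 of 10533 are shared. With a pseudocount of 0.1 the log2 fold changes were -2.06 for CYP1B1-AS1 and -1.79 for CYP1B1, so which gene fell more depended on that choice.

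PRKCH-AS1, inside the gene of protein kinase C eta, measured 1.74, 1.65 and 1.301 FPKM in DMSO and 0.285, 0.235 and 0.316 FPKM in PD (log2 fold change -0.9998 ± 0.10 SE), just short of 2-fold on this scale. It too reached 0.5 FPKM in DMSO alone, so no p is given. PRKCH measured 3.06, 3.298 and 3.25 FPKM in DMSO and 1.63, 1.73 and 1.66 FPKM in PD and fell too (log2 fold change -0.65 ± 0.06 SE, adjusted p = 9.04e-05).

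Each antisense gene was set against its partner. Both genes passed in 85 of 320 pairs: 53 in the same direction (18 both higher, 35 both lower) and 32 in opposite directions (10 with the antisense gene higher, 22 with it lower). Of the 267 pairs whose antisense gene reached 0.5 FPKM in both groups, 42 moved the same way and 25 the opposite way. Of the 280 partners tested, 85 rose (30.4%), 98 fell (35%) and 97 did not pass, with a background of 31.9% and 26.2%, and 34 partners were not tested. Among genes that passed, falls outnumbered rises in antisense genes and in partners, and how far that bears on the agreement in direction was not tested. The share of pairs that would agree without any link within pairs was not computed. Another 101 antisense genes did not pass while the partner did. Pearson's r between the log2 fold changes of antisense gene and partner was 0.301 over 285 pairs and Spearman's rho 0.271, given as a description, since all pairs share the same 6 libraries. In the 82 tested pairs that share no exon bases r was 0.297, against 0.304 in the 203 that do. Sharing was judged against the partner only, and some antisense genes share exon bases with another gene. Of the 28 pairs without shared exon bases in which both passed, 20 moved the same way and 8 the opposite way. Of the 57 with shared bases, 33 moved the same way and 24 the opposite way. Where every library had at least 100 fragments for the antisense gene, r was 0.123 and rho 0.023 over 53 pairs, and of the 24 such pairs in which both passed 13 moved the same way and 11 the opposite way (54.2% and 45.8%, against 62.4% and 37.6% of the 85).

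**Figure D3:**
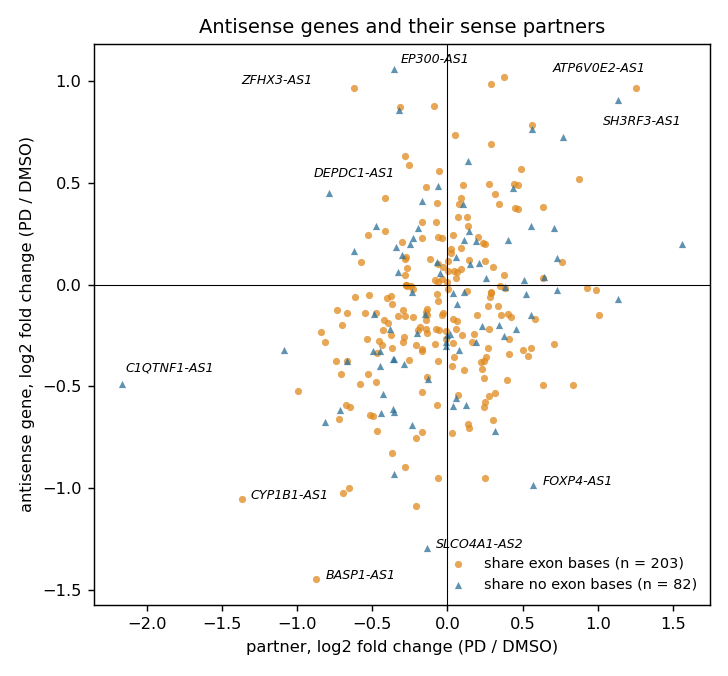
Log2 fold change (PD over DMSO, log2(FPKM + 1) scale) of the antisense gene (vertical axis) against that of its partner (horizontal axis) for the 285 pairs with both genes tested, by whether their exons share bases; each point is a pair. Points spread over all 4 quadrants, with a weak lean to the same direction (r = 0.301).

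The same counts were taken by layout of the pair, and differences between layouts were not tested. They include the genes that reached 0.5 FPKM in 1 group alone (41 in DMSO and 12 in PD), where a difference was built into the choice. SLCO4A1-AS2 and PRKCH-AS1 are such genes inside the partner. Over all genes tested 31.9% rose and 26.2% fell, and over the 320 antisense genes 15.6% and 27.8%. Among the 96 head-to-head antisense genes 18 rose (18.8%) and 19 fell (19.8%). Among the 76 inside the partner 4 rose (5.26%) and 32 fell (42.1%), and their median change was -0.28 on the log2 scale. The 4 were SLC9A3-AS1, GJD3-AS1 (log2 fold change 0.56), DENND3-AS1 (0.48) and CLN8-AS1 (0.40), the last 3 named after their values were seen. Of the 32 that fell, the partner fell in 11, rose in 6, did not pass in 9 and was not tested in 6. Of the 59 that overlap the partner's start 9 rose (15.3%) and 17 fell (28.8%). At the partner's end 12 of 58 rose (20.7%) and 14 fell (24.1%), and 3 of the 25 spanning genes rose (TBX2-AS1, ELOA-AS1 and DHRS4-AS1) and 7 fell. Of the 5 genes that lie apart, IGFL2-AS1, LYRM4-AS1 and C2CD4D-AS1 rose and DNAJC9-AS1 and FOXD2-AS1 did not pass. Levels were alike, with medians of 1.26 FPKM head to head and 1.148 FPKM inside the partner. Over tested pairs r of the log2 fold changes was 0.432 inside the partner (64 pairs), 0.406 at its start (54), 0.344 head to head (96) and 0.012 at its end (53).

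**Figure D4:**
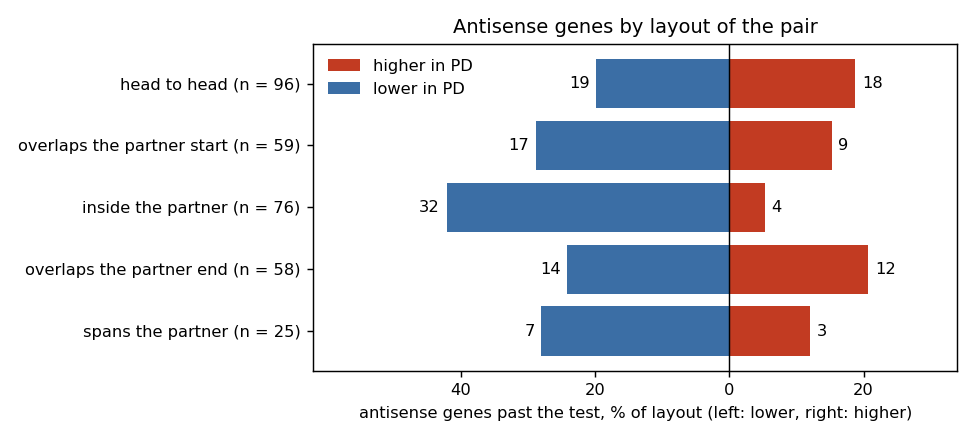
Share of antisense genes past the test by layout of the pair, in percent, with genes lower in PD drawn to the left and genes higher in PD to the right; the numbers beside the bars are counts. Inside the partner 32 of 76 fell and 4 rose, while head to head 19 fell and 18 rose.

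The pairs that moved in opposite directions by the widest gap were those of EP300, described above, ZFHX3, FOXP4, GAS6 and DEPDC1. They were chosen for that gap, so the change in their log2 ratio of antisense to partner is a description with no test. The ratio rose by 1.41 for EP300-AS1, by 1.59 for ZFHX3-AS1 and by 1.24 for DEPDC1-AS1, and it fell by 1.55 for FOXP4-AS1 and by 1.33 for GAS6-AS1.

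ZFHX3-AS1 overlaps the end of ZFHX3, the gene of a large zinc-finger homeobox transcription factor. ZFHX3-AS1 measured 2.24, 1.91 and 2.08 FPKM in DMSO and 5.303, 4.98 and 4.69 FPKM in PD (log2 fold change 0.96 ± 0.07 SE, adjusted p = 2.71e-05). ZFHX3 measured 7.75, 8.63 and 7.78 FPKM in DMSO and 5.11, 4.79 and 4.705 FPKM in PD (log2 fold change -0.62 ± 0.06 SE, adjusted p = 8.95e-05). In DMSO the partner was the more abundant gene, and in PD the levels met. Their exons share 1686 bases, and fragments of those bases cannot be assigned to either gene with this kit. How such fragments were counted is not known.

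FOXP4-AS1 overlaps the start of FOXP4, the gene of a forkhead repressor, with no shared exon bases. It measured 1.67, 2.11 and 2.75 FPKM in DMSO and 0.652, 0.366 and 0.788 FPKM in PD (log2 fold change -0.98 ± 0.15 SE, adjusted p = 0.00117), on 6 to 44 fragments a library. FOXP4 measured 7.79, 7.87 and 7.46 FPKM in DMSO and 11.2, 11.9 and 12.7 FPKM in PD (log2 fold change 0.57 ± 0.05 SE, adjusted p = 9.86e-05).

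GAS6-AS1 runs across the end of GAS6, which encodes the ligand of the TAM receptor kinases. Its level was 0.945, 0.674 and 0.701 FPKM in DMSO and 0.178, 0.271 and 0.325 FPKM in PD (log2 fold change -0.49 ± 0.11 SE). It reached 0.5 FPKM in DMSO alone, with a mean of 0.516 FPKM over all libraries, so a difference was built into its choice and no p is given. GAS6 measured 2.4, 2.404 and 2.599 FPKM in DMSO and 4.84, 5.65 and 5.105 FPKM in PD (log2 fold change 0.84 ± 0.07 SE, adjusted p = 4.53e-05), and 421 exon bases are shared.

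DEPDC1-AS1, at the start region printed above, measured 0.928, 0.478 and 0.844 FPKM in DMSO and 1.198, 1.24 and 1.72 FPKM in PD (log2 fold change 0.45 ± 0.14 SE, adjusted p = 0.0253). DEPDC1, a protein most abundant in mitotic cells, measured 13.9, 12.4 and 12.4 FPKM in DMSO and 7.46, 7.03 and 6.59 FPKM in PD (log2 fold change -0.79 ± 0.06 SE, adjusted p = 4.67e-05). The rise of DEPDC1-AS1 rested on 10 to 35 fragments a library, and its adjusted p was 0.0729 with no filter on FPKM and 0.0651 and 0.0832 without DMSO replicate 2 and PD replicate 3.

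**Figure D5:**
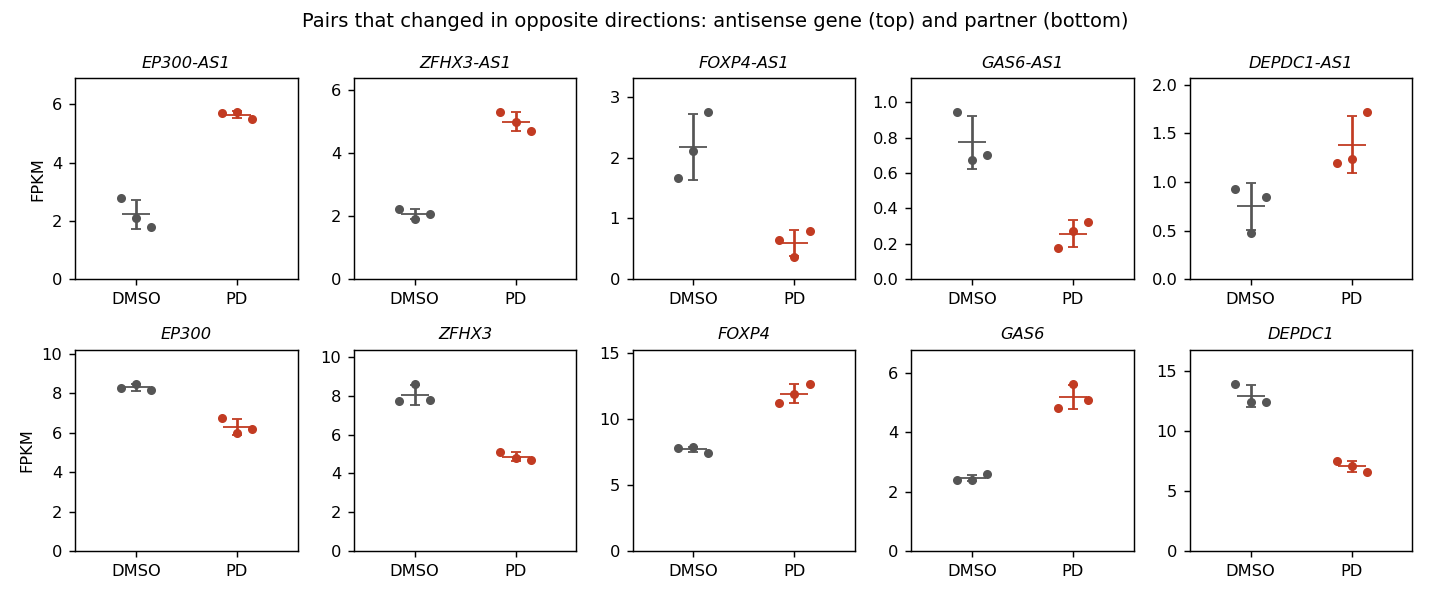
FPKM in each DMSO and PD library of the 5 pairs that moved in opposite directions by the widest gap, with the antisense gene in the top row and its partner below; points are libraries, and the horizontal line and bar give mean and SD (n = 3). In each column the antisense gene and its partner moved in opposite directions between groups, as their choice required, and the groups do not overlap in any panel.

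The remaining 27 opposite pairs comprised 7 in which the antisense gene rose and 20 in which it fell. Those without shared exon bases, named after their values were seen, were LYRM4-AS1 (log2 fold change 0.86, partner -0.33, and under 0.5 FPKM in DMSO), ZFPM1-AS1 (-0.72, partner 0.32), MIDEAS-AS1 (0.41, partner -0.17), RASAL2-AS1 (0.28, partner -0.19) and ESAM-AS1 (-0.28, partner 0.19).

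Of the pairs that moved together, ATP6V0E2, SH3RF3, BASP1, CYP1B1 and TBX2 showed the largest changes of both genes. ATP6V0E2-AS1 overlaps the start of ATP6V0E2, a subunit of the proton-pumping V-ATPase, and measured 0.792, 0.779 and 0.568 FPKM in DMSO and 2.42, 2.43 and 2.16 FPKM in PD (log2 fold change 0.96 ± 0.09 SE, adjusted p = 8.23e-05). ATP6V0E2 measured 9.32, 10.6 and 9.798 FPKM in DMSO and 25.2, 24.8 and 24.8 FPKM in PD (log2 fold change 1.25 ± 0.05 SE, adjusted p = 3.19e-06). They share 864 exon bases. Which gene rose more depended on the pseudocount: with 0.1 in place of 1, the log2 fold changes were 1.59 for ATP6V0E2-AS1 and 1.33 for ATP6V0E2.

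SH3RF3-AS1 and SH3RF3 are head to head in GENCODE, 275 bases apart by start site, with no shared exon bases. SH3RF3-AS1 measured 0.758, 0.521 and 0.692 FPKM in DMSO and 1.97, 2.35 and 1.99 FPKM in PD (log2 fold change 0.90 ± 0.09 SE, adjusted p = 0.00016). SH3RF3, a RING-type ubiquitin ligase with SH3 domains, measured 1.49, 1.34 and 0.947 FPKM in DMSO and 3.43, 4.37 and 4.03 FPKM in PD (log2 fold change 1.13 ± 0.11 SE, adjusted p = 0.000135). The ratio of the 2 genes overlapped between groups (exact permutation test, p = 0.20). Changes of both genes in the same direction were a reason for naming the pair and enter the ratio, so the p is a description.

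TBX2-AS1 spans TBX2, the gene of a T-box repressor, and shares no exon bases with it. TBX2-AS1 measured 0.864, 0.693 and 1.65 FPKM in DMSO and 2.06, 2.32 and 2.69 FPKM in PD (log2 fold change 0.72 ± 0.17 SE, adjusted p = 0.00832), and TBX2, which was under 0.5 FPKM in DMSO, measured 0.298, 0.218 and 0.204 FPKM in DMSO and 1.28, 0.937 and 1.13 FPKM in PD (log2 fold change 0.77 ± 0.10 SE). Their log2 ratio differed by -0.05 between PD and DMSO, with overlap between groups (exact permutation test, p = 0.80). This pair was named for changes of both genes in the same direction, which enter the ratio, so the p is a description. With a pseudocount of 0.1 the log2 fold changes were 1.15 for TBX2-AS1 and 1.84 for TBX2, so the near-equal change depended on the pseudocount.

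Partners with large changes did not always have an antisense gene that passed. These genes were named after their values were seen. Of the 5 partners that rose 2-fold (1.79% of the 280 tested, background 2.04%), FAM222A (log2 fold change 1.56), FIBCD1 (1.13) and TDRKH (1.01) had antisense genes that did not pass, with log2 fold changes of 0.20, -0.07 and -0.15 for FAM222A-AS1, FIBCD1-AS1 and TDRKH-AS1. Those rested on few fragments, 7 to 22, 11 to 20 and 7 to 17 a library. The 3 partners that fell 2-fold (1.07%, background 1.57%) had antisense genes that fell too. Both sets of partners hold for the log2(FPKM + 1) scale, and more partners changed 2-fold with a pseudocount of 0.1 or by voom. C1QTNF1, a secreted protein of the adiponectin family, measured 7.54, 8.98 and 8.73 FPKM in DMSO and 1.31, 0.987 and 0.998 FPKM in PD (log2 fold change -2.17 ± 0.09 SE, adjusted p = 3.74e-06). C1QTNF1-AS1 measured 3.78, 4.32 and 4.24 FPKM in DMSO and 2.86, 2.48 and 2.603 FPKM in PD (log2 fold change -0.49 ± 0.07 SE, adjusted p = 0.000794) and shares no exon bases with it. WNT5A, a ligand of non-canonical Wnt signalling, measured 13.8, 14.04 and 10.9 FPKM in DMSO and 5.91, 5.39 and 5.28 FPKM in PD (log2 fold change -1.09 ± 0.09 SE, adjusted p = 6.6e-05), and WNT5A-AS1 inside it measured 2.89, 2.74 and 2.69 FPKM in DMSO and 1.66, 2.51 and 1.96 FPKM in PD (log2 fold change -0.32 ± 0.10 SE, adjusted p = 0.0328). The remaining partner was CYP1B1, given above. Its antisense gene reached 0.5 FPKM in DMSO alone, so a difference was built into the choice of that gene.

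Where a partner has 2 antisense genes, their states were alike in 6 of 6 partners. For MNX1, PTOV1 and TMEM44 this means only that neither gene passed, as was so for 56.6% of all 320 antisense genes. BCAN-AS1 and BCAN-AS2 both rose (log2 fold changes 0.76 and 0.78), as did BCAN (0.56), the gene of the matrix proteoglycan brevican. DLGAP1-AS1 and DLGAP1-AS2 both fell (-0.72 and -0.35) while DLGAP1 gave at most 2 fragments in a library. The SLCO4A1 pair passed as lower. The antisense genes of MNX1, PTOV1 and TMEM44 did not pass, with log2 fold changes between -0.15 and 0.49.

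In 6 antisense genes a library had no fragment: ALG13-AS1, MNX1-AS2, OCIAD1-AS1, PIGO-AS1, SYNM-AS1 and TCEAL3-AS1. They had at most 13 fragments in any library, and PIGO-AS1 and TCEAL3-AS1, which passed the test as lower in PD, reached 0.5 FPKM in DMSO alone. A count of 0 allows up to 3 fragments at this depth, for counting error only.

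Genes of the machinery that handles such RNAs were read from lists. Of 18 subunits and adaptors of the nuclear exosome, all tested, 3 rose and 13 fell against a background of 31.9% higher and 26.2% lower, and the list had a median of -0.27 (log2 fold change) and summed levels of 205 to 210 FPKM in DMSO and 170 to 176 FPKM in PD. The largest rise was that of EXOSC6, a core subunit of the exosome, and the largest fall that of ZFC3H1, which links the exosome to polyadenylated nuclear RNA. ZFC3H1 measured 14.6, 14.7 and 13.9 FPKM in DMSO and 7.27, 6.28 and 6.26 FPKM in PD (log2 fold change -1.02 ± 0.06 SE, adjusted p = 1.45e-05), and EXOSC6 measured 6.27, 5.89 and 5.47 FPKM in DMSO and 8.21, 8.41 and 7.44 FPKM in PD (log2 fold change 0.39 ± 0.06 SE, adjusted p = 0.00157). Of 12 proteins that bind, edit or cut double-stranded RNA, 1 rose and 9 fell against the same background, with a median of -0.30 and summed levels of 416 to 420 FPKM in DMSO and 379 to 386 FPKM in PD. STAU1, which binds RNA duplexes in mRNA decay, rose (log2 fold change 0.27 ± 0.03 SE, adjusted p = 0.000138), and DHX9, a helicase of RNA duplexes, fell (log2 fold change -0.45 ± 0.04 SE, adjusted p = 9.91e-05). The part of these genes in the levels of the antisense RNAs was not tested.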

How the data were processed

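RNA from 3 dishes of HepG2 cells treated with PD and 3 with DMSO was sequenced, and groups came from the sample labels. The authors selected poly(A) RNA, used HISAT2 for alignment to hg38 and HTSeq 0.6.0 for counting, and deposited FPKM for 28563 genes, and no other values were used. The strand setting of the counting and the annotation are not given in the sources used here. GENCODE release 44 gave biotype, symbols and layout.

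PD was compared with DMSO by limma 3.58.1 in R 4.3.3 on log2(FPKM + 1), with an intensity trend and no covariates, over 14400 genes whose mean reached 0.5 FPKM, with Benjamini-Hochberg adjustment over all of them. The threshold was an adjusted p of 0.05, and 2-fold means a log2 difference of 1 or more. Because FPKM made from counts are multiples of a step, whole fragments were worked back (tolerance 0.0001; 99.7 to 99.8% of each library total) for depth and for limma voom. Replicate numbers were checked for pairing: same-numbered libraries had correlations of -0.027, -0.0046 and 0.0898 in their deviations, so they were not treated as pairs. Alternatives were the pseudocount, 2 filters, 2 scalings, voom, the replicate block and leaving out each library, and, added after the values were seen, antisense genes with both group means at 0.5 FPKM or above. Log2 ratios of antisense to partner were tested by exact two-sided permutation. For genes named by the size of their own change, or as pairs that changed in the same direction, those changes enter the ratio, so the p is a description.

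The antisense genes and the marker, exosome and double-stranded RNA lists were chosen with earlier results of these data known. Named were the 8 largest rises, 8 largest falls and 8 highest levels, the 5 widest opposite and 5 largest same-direction pairs, with their partners, and the largest rise and fall of the exosome and double-stranded RNA lists.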

Additional observations from a re-analysis of the deposited data

How the results depend on the processing

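Counts of antisense genes past an adjusted p of 0.05 stayed within 1.5 times of 50 higher and 89 lower under all settings, and more fell than rose under each. Leaving out each library in turn gave 39 to 48 higher and 74 to 85 lower, 73 to 78 partners higher and 90 to 99 lower, 42 to 50 pairs moving together and 22 to 28 moving apart, and 2 to 5 antisense genes 2-fold higher. The 2-fold counts depended on the scale. A pseudocount of 0.1 gave 17 antisense genes higher and 34 lower, and 9 partners higher and 5 lower. Limma voom gave 17 and 38, and 11 and 10 partners. Over all genes the 2-fold counts were 698 and 550 of 14400 with that pseudocount and 1012 and 723 of 15068 by voom. With no filter on FPKM 28563 genes were tested and opposite pairs numbered 20. Pairs sharing no exon bases numbered 20 in the same direction and 8 in opposite directions, fewer by construction. Among named genes NNT-AS1 changed sign, to -0.011 and -0.032 under the 2 other scalings, with -0.056 to 0.071 when a library was left out, never past the threshold. FGD5-AS1 missed it under upper quartile scaling (adjusted p = 0.0592) and without DMSO replicate 1 or 3 or PD replicate 2 or 3 (0.0508 to 0.0627). A replicate block, fitted although the numbers do not pair the samples, gave 48 antisense genes higher and 84 lower and 29 opposite pairs. Of 24 named pairs, the log2 ratio of antisense to partner moved by more than the spread between replicates in 17 with a pseudocount of 0.1 and in 17 by voom, with a change of sign in 2 under each, and it changed sign in 1 without DMSO replicate 3 and in 1 without PD replicate 1, so the sizes of these ratios hold for the log2(FPKM + 1) scale.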
